A study of Mus musculus with 12 samples.

Results

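The genes described here are *Myc* and 38 genes whose products make or assemble ribosomes, 39 in all of the 55487 genes in the count table. They were taken from a list of gene symbols drawn up with earlier results of these data known, and no threshold on measured values was applied. Each of the 39 symbols matched 1 mouse Ensembl identifier in the table (*Myc* is ENSMUSG00000022346, *Polr1a* ENSMUSG00000049553, *Nop58* ENSMUSG00000026020, *Nolc1* ENSMUSG00000015176, *Lyar* ENSMUSG00000067367, *Rrp12* ENSMUSG00000035049 and *Wdr12* ENSMUSG00000026019). All 39 passed the low-count filter, as did 13581 genes in the whole table.

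Ribosomes are made mainly in the nucleolus, where RNA polymerase I transcribes the ribosomal DNA into a long precursor. Small nucleolar ribonucleoproteins (snoRNPs) guide methylation and pseudouridylation of that precursor, and a large set of assembly factors folds and cuts it into the small and large subunits. MYC is a transcription factor that binds DNA with its partner MAX, is controlled at many levels besides its mRNA, and is known for raising the expression of many ribosome biogenesis genes in growing cells. In the kidney, TGFβ is known as a driver of fibrosis that changes tubular epithelial cells towards a mesenchymal state.

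The cells were im-TEC, mouse kidney tubular epithelial cells that are conditionally immortalized with SV40 large T antigen. They were kept at 33 °C with 10 ng/mL interferon gamma and then grown for 7 days at 37 °C without it before seeding, and this background was common to all 4 groups of 3 libraries. The groups were control, TGFβ at 10 ng/mL, the inhibitor of nicotinamide N-methyltransferase 5-amino-1-methylquinolinium (NNMTi) at 50 µM, and TGFβ with the inhibitor at the same doses, each for 48 h. QuantSeq FWD libraries, which read the 3′ end of polyadenylated transcripts, were made from 100 ng of total RNA. Whether the 3 libraries of a group are separate cultures is not stated, and p-values therefore cover the spread among these libraries, which may be technical.

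Libraries held 2584117 to 11866903 gene counts, and levels are given as CPM, counts scaled to a common library total after normalisation. CPM are shares of a library, so more RNA per cell, more cells expressing a gene and a change in total RNA cannot be told apart. The tubular markers *Pax8*, *Krt8*, *Cdh16*, *Lrp2* and *Aqp1* were detected in every group, while *Epcam* and *Slc34a1* had 0 counts and *Cdh1* had 1 to 4 counts in each group. The summed level of the 11 tubular markers was 1613 to 1747 CPM in control libraries, 1633 to 1739.6 with the inhibitor, 608 to 908 with TGFβ and 584 to 589.8 with both agents. *Aqp1* held most of this sum in controls, and its mean was 1012.5 CPM there, 995 with the inhibitor, 25.2 with TGFβ and 11.5 with both, while *Krt8* averaged 62.6, 27.3, 288 and 195 CPM and *Pax8* 220.5, 249.8, 184 and 142 CPM. The 6 fibroblast markers summed to 0.605 to 1.67 CPM in controls, 0 to 1.10 with the inhibitor, 12.0 to 15.7 with TGFβ and 2.20 to 4.23 with both, and *Pdgfra* and *Thy1* were at 0. Of the podocyte markers, *Synpo* was detected at 201 to 231, 139 to 168, 248 to 388 and 216 to 257 CPM, with *Nphs1* at 0, and the summed endothelial and leukocyte markers reached at most 0.437 and 8.19 CPM. Mitochondrial transcripts made up 7.05 to 8.08% of gene counts in controls, 11.3 to 12.4% with the inhibitor, 5.81 to 8.34% with TGFβ and 7.44 to 8.95% with both, and *Malat1*, a nuclear RNA, 2.01 to 2.13%, 3.29 to 3.58%, 0.981 to 1.58% and 2.25 to 2.58%. These markers and shares moved with the treatments, and their part in the results was not tested. TGFβ replicate 2 stood apart from the other libraries, with a sample quality weight of 0.146 (0.674 to 1.90 in the other 11), and TGFβ replicate 3 was the shallowest, so results that rest on them are given with and without them.

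With TGFβ alone, ribosome biogenesis transcripts were higher than in controls, while the change of *Myc* mRNA did not pass the test. Of the 39 genes, 27 rose (69.2%) and 0 fell in edgeR's quasi-likelihood test with Benjamini-Hochberg adjustment over all tested genes, at an adjusted p under 0.05. Over all tested genes, 19.4% were called higher and 17.1% lower. Without adjustment, 28 of the 39 were higher and 0 lower at p under 0.05 (23.8% and 20.9% of all tested genes). DESeq2 called 25 higher and 0 lower (16% and 14.9%). The median log2 fold change of the 39 was 0.53, against 0.02 over all tested genes. In 27 genes every TGFβ library was above every control library, and in 1, *Ubtf*, every TGFβ library was below (23% and 22.4% of all tested genes). As a share of all gene counts, the 39 genes together took 0.292 to 0.297% in the control libraries and 0.370 to 0.425% in the TGFβ libraries. Without TGFβ replicate 2, 26 of the 39 were called higher and 0 lower, and without TGFβ replicates 2 and 3 together 24 were called higher and 0 lower.

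**Figure D1:**
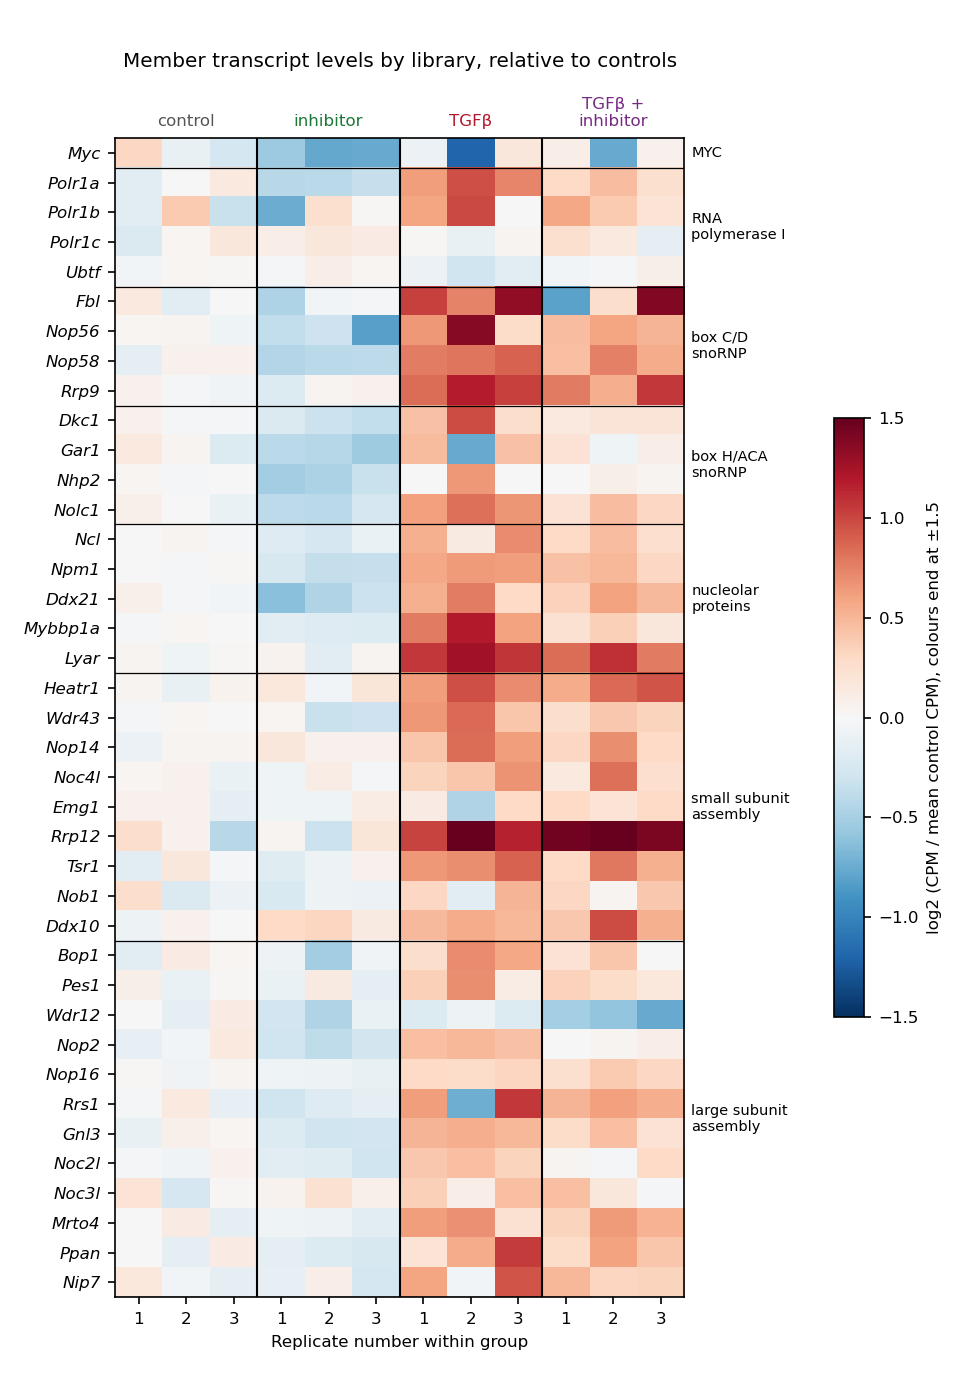
Level of each of the 39 genes (rows, grouped by role) in each of the 12 libraries (columns), as the log2 ratio of its CPM to the mean control CPM; colours end at ±1.5. TGFβ columns are mostly red and inhibitor columns mostly pale blue, while *Myc* is blue in TGFβ replicate 2, in replicate 2 of both agents and in all 3 inhibitor libraries.

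*Myc* itself measured 33.9, 25.2 and 22.7 CPM in the control libraries and 25.6, 12.0 and 30.6 CPM with TGFβ. The groups overlapped, and TGFβ replicate 2 was the lowest of the 6 libraries. The log2 fold change was -0.34 ± 0.31 (SE; adjusted p = 0.432, edgeR), and it was 0.00 without TGFβ replicate 2.

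Among the genes of RNA polymerase I, 1 of 4 rose. *Polr1a*, which encodes the largest subunit, measured 41.0, 46.1 and 50.6 CPM in controls and 70.7, 89.9 and 76.5 CPM with TGFβ. All 3 TGFβ libraries lay above the controls, a 1.73-fold rise (log2 0.79 ± 0.12 SE, adjusted p = 5.15e-05, edgeR). *Polr1b*, the other large catalytic subunit, measured 5.13, 7.5 and 4.54 CPM in controls and 8.62, 11.3 and 5.74 CPM with TGFβ, groups that overlapped (adjusted p = 0.0812), and it was called without control replicate 2 (0.0472) or TGFβ replicate 3 (0.0320). *Ubtf*, whose product UBF binds and opens the ribosomal DNA, measured 104, 108 and 108 CPM in controls and 100.4, 86.9 and 95.3 CPM with TGFβ. Its TGFβ libraries were the lower ones without overlap, but the difference of -0.18 ± 0.09 (log2, SE) was not called (adjusted p = 0.151). *Polr1c*, a subunit shared with RNA polymerase III, had a log2 fold change of -0.02 ± 0.13 (adjusted p = 0.913).

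Box C/D snoRNPs methylate ribosomal RNA, and 3 of their 4 genes rose. *Nop58*, a core scaffold protein, measured 182, 209 and 209.8 CPM in controls and 341, 351 and 370.0 CPM with TGFβ. The groups were far apart relative to their spread, a 1.77-fold rise (log2 0.82 ± 0.10 SE, adjusted p = 2.74e-06, edgeR). *Rrp9*, a protein of the U3 snoRNP that is needed to cut the precursor, measured 13.7, 13 and 12.7 CPM in controls and 23.4, 29.7 and 26.8 CPM with TGFβ. That was a 2.03-fold rise with no overlap (adjusted p = 8.38e-05). *Nop56*, the partner of NOP58, went from 36.6, 37.0 and 34.3 CPM to 56.7, 92.7 and 43.6 CPM, with TGFβ replicate 2 far above the other libraries. Its rise was 1.83-fold (adjusted p = 0.00323), and its log2 value fell from 0.87 to 0.51 without that library (adjusted p = 0.00541). *Fbl*, the methyltransferase fibrillarin, measured only 1.34, 1.09 and 1.21 CPM in controls and 2.48, 2.04 and 3.06 CPM with TGFβ, and was not called (log2 0.99 ± 0.49 SE, adjusted p = 0.131) although the groups did not overlap.

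Of the 4 genes of box H/ACA snoRNPs, which carry out pseudouridylation, 2 rose. *Nolc1*, a chaperone of snoRNPs, measured 107, 102 and 95 CPM in controls and 156, 180.4 and 161 CPM with TGFβ. All TGFβ libraries were above all controls, a 1.64-fold rise (log2 0.71 ± 0.10 SE, adjusted p = 2.33e-05, edgeR). *Dkc1*, the pseudouridine synthase dyskerin, measured 80.1, 75.2 and 75.3 CPM in controls and 104, 152 and 92.2 CPM with TGFβ, a 1.53-fold rise (adjusted p = 0.00181). Its log2 value fell from 0.61 to 0.36 without TGFβ replicate 2 (adjusted p = 0.00482). *Gar1*, a core protein, measured 175, 162 and 137 CPM in controls and 219, 93.5 and 215 CPM with TGFβ, so that 2 TGFβ libraries were above every control and replicate 2 was below them all. It was not called (log2 0.14 ± 0.25 SE, adjusted p = 0.715), but it was without that library (log2 0.45, adjusted p = 0.000676) and, with the library kept, by voom with quality weights (0.41, 0.0217). *Nhp2*, the remaining core protein, was not called (log2 0.28 ± 0.15 SE, adjusted p = 0.171).

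The abundant nucleolar proteins rose in 5 of 5 genes. *Lyar*, a zinc finger protein of the nucleolus, measured 62.9, 58.2 and 61.7 CPM in controls and 127, 146 and 129 CPM with TGFβ. It had the smallest adjusted p of the 39 genes (2.09e-07, edgeR), for a 2.2-fold rise (log2 1.14 ± 0.11 SE). *Mybbp1a*, a nucleolar protein that binds RNA polymerase I, rose 1.85-fold from 57.7, 59.8 and 58.1 CPM to 100.2, 133 and 89.1 CPM (adjusted p = 1.94e-05). *Ddx21*, an RNA helicase, rose 1.47-fold from 134, 125 and 124 CPM to 184, 218 and 158 CPM (adjusted p = 0.00109). For *Npm1*, the histone and ribosome chaperone nucleophosmin, the 3 control libraries at 144 to 147 CPM and the 3 TGFβ libraries at 216 to 226 CPM differed by 1.53-fold (adjusted p = 2.4e-05). *Ncl*, which encodes nucleolin, rose 1.4-fold (adjusted p = 0.00342). None of the 5 genes had a TGFβ library inside the range of its controls.

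Among factors of the small subunit, 7 of 9 genes rose. *Rrp12*, which takes part in the export and maturation of pre-ribosomes, changed most of the 39 genes on the log2 scale. It measured 10.2, 8.84 and 6.35 CPM in controls and 17, 24.9 and 18.7 CPM with TGFβ, a 2.43-fold rise without overlap (log2 1.28 ± 0.21 SE, adjusted p = 8.07e-05, edgeR). *Wdr43*, part of the early complex on the precursor, rose 1.58-fold from 85.8, 89.5 and 88.1 CPM to 138, 158 and 117 CPM. *Ddx10*, a helicase, rose 1.43-fold from 41.7, 46.0 and 44.2 CPM to 61.4, 64.6 and 62.0 CPM. *Nop14*, a component of the small subunit processome, rose 1.56-fold from 77.4, 84.2 and 84.7 CPM to 109.9, 147 and 127 CPM. Adjusted p-values of these 3 genes lay between 0.000243 and 0.00554. The processome protein *Heatr1* (1.72-fold), the late factor *Tsr1* (1.66-fold) and *Noc4l* (1.38-fold), a partner of NOP14, also rose. The methyltransferase *Emg1* (log2 0.00 ± 0.15 SE) and the endonuclease *Nob1* (log2 0.20 ± 0.18 SE) were not called.

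Of the 12 large subunit genes, 9 rose. *Gnl3*, the GTPase nucleostemin, had the smallest adjusted p among them, at 76.6, 87.5 and 84.2 CPM in controls and 118, 120.3 and 117 CPM with TGFβ. It rose 1.43-fold (log2 0.52 ± 0.10 SE, adjusted p = 0.000408, edgeR). *Nop2*, a ribosomal RNA methyltransferase, rose 1.38-fold from 73.0, 77.8 and 88.6 CPM to 109.5, 113 and 108 CPM (adjusted p = 0.00113). *Ppan* had the largest change of the group, 1.51-fold, but its TGFβ libraries were spread over 22.6, 28.8 and 40.6 CPM against 19.5, 17.8 and 21.4 CPM in controls (adjusted p = 0.013). *Mrto4*, *Noc2l*, *Bop1*, *Pes1*, *Nip7* and *Nop16* rose 1.23-fold to 1.51-fold with *Ppan* included, and *Nip7* did so with an overlap between the groups.

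*Wdr12*, *Rrs1* and *Noc3l* were the large subunit genes not called. The product of *Wdr12* forms the PeBoW complex with PES1 and BOP1, and while *Pes1* (1.35-fold, adjusted p = 0.0263) and *Bop1* (1.44-fold, adjusted p = 0.017) rose, *Wdr12* measured 30.6, 27.6 and 33.4 CPM in controls and 26.5, 28.9 and 26.4 CPM with TGFβ and was not called (log2 -0.16 ± 0.14 SE, adjusted p = 0.401). *Rrs1*, which helps bring the small 5S particle into the large subunit, measured 31.1, 35.0 and 29.0 CPM in controls and 49.0, 19.0 and 66.2 CPM with TGFβ. Like *Gar1*, it was above every control in 2 libraries and below them in replicate 2, and it was not called with that library (log2 0.42, adjusted p = 0.342, edgeR) but was without it (0.81, 2.57e-05) and, with the library kept, by voom with quality weights (0.59, 0.00287). *Noc3l* was not called by edgeR (log2 0.29 ± 0.15 SE, adjusted p = 0.155) and was by voom (0.39, 0.0197).

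Of the 27 rises, 21 were called whichever library was left out. *Bop1* lost its call without control replicate 1 (adjusted p = 0.0819, edgeR) or TGFβ replicate 2 (0.0840). *Pes1* lost it without TGFβ replicate 2 (0.188) or either of 2 controls, replicate 2 (0.104) and replicate 3 (0.0702), and *Ppan* without control replicate 2 (0.0585) or TGFβ replicate 3 (0.0572). The calls of *Noc4l*, *Nip7* and *Nop16* ended without 8, 10 and all 12 of the libraries in turn, with adjusted p-values of 0.0504 to 0.118, 0.0671 to 0.164 and 0.0600 to 0.133. *Noc4l* kept its call only without TGFβ replicates 1 or 2 or replicates 1 or 2 of the combined treatment, and *Nip7* only without control replicate 1 or TGFβ replicate 2.

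**Figure D2:**
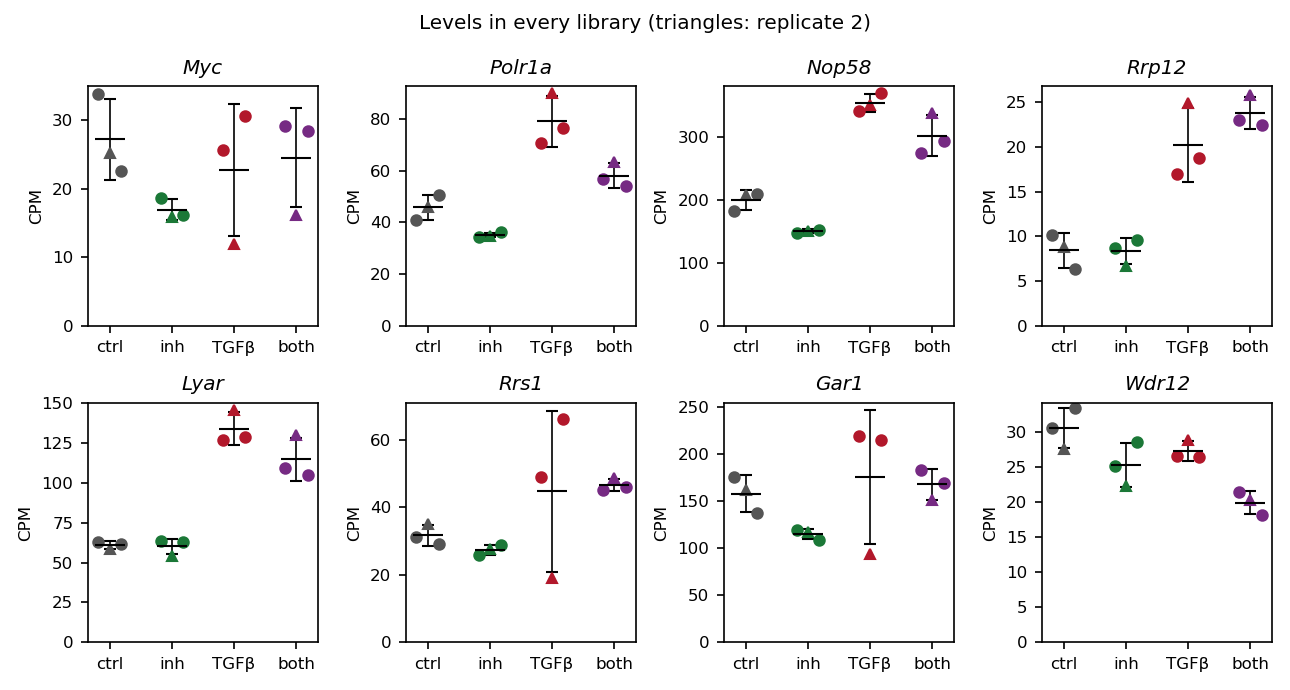
CPM in every library for 8 of the genes (y axes start at 0), with the group mean as a line and the SD over 3 libraries as bars; ctrl is control, inh the inhibitor, both the combined treatment, and triangles are replicate 2. TGFβ replicate 2 is the lowest TGFβ point for *Myc*, *Rrs1* and *Gar1* and the highest for *Polr1a*, *Rrp12*, *Lyar* and *Wdr12*.

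The promoter sequences of these genes were searched for the letters bound by MYC with MAX. RefSeq (build GRCm38.p6) gave a window of 250 bases before to 50 bases after the transcript start for 33 of the 39 genes, and *Myc*, *Fbl*, *Npm1*, *Rrp12*, *Bop1* and *Rrs1* had no entry. The canonical E-box CACGTG, which reads the same on both strands, was present in 5 of the 33 genes (15.2%), against 11.8% of 9389 tested genes with a promoter entry and 8.09% of all 27025 genes with one. The related letters CACGCG, or CGCGTG on the other strand, were present in 13 of 33 (39.4%), against 20.6% and 10.5%, and 10 of the 13 rose with TGFβ while *Polr1c*, *Ubtf* and *Nhp2* were not called. Of all 39 genes, 69.2% rose with TGFβ, and whether genes with a match rose more often than the rest was not tested. A match is a description of the letters and not a binding site. All 5 genes with a CACGTG rose with TGFβ, and their windows are shown 5′ to 3′ on the gene's strand with the E-box in capitals, followed by CACGCG or CGCGTG windows of *Nolc1* and *Lyar*, which rose, and of *Ubtf* and *Nhp2*, which were not called.
Mybbp1a, chr11:72441355-72441376, plus strand: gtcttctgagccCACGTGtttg
Wdr43, chr17:71616220-71616249, plus strand: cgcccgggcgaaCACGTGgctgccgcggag
Tsr1, chr11:74898092-74898121, plus strand: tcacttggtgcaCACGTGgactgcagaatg
Pes1, chr11:3963965-3963994, plus strand: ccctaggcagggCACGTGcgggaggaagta
Nop2, chr6:125131811-125131840, plus strand: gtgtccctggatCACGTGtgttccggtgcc
Nolc1, chr19:46075810-46075839, plus strand: gcaggatgatgaCGCGTGtgggaccggaag
Lyar, chr5:38220485-38220514, plus strand: ggcctctgcgcgCACGCGcgttggcgcgcg
Ubtf, chr11:102316700-102316729, minus strand: gggagctagctgCACGCGggagctgggagc
Nhp2, chr11:51619764-51619793, plus strand: ggaggcggcggcCGCGTGgttcctctatgc
In *Nop2* the E-box began 60 bases before the start, and in *Mybbp1a*, *Wdr43*, *Tsr1* and *Pes1* it lay just after it.

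In the presence of the inhibitor, TGFβ again went with higher ribosome biogenesis transcripts. Compared with the inhibitor alone, the combined treatment gave 25 rises and 0 falls among the 39 genes (edgeR), where 18% of all tested genes were called higher and 18.3% lower. DESeq2 also called 25 higher and 0 lower (15.4% and 15.6% of all tested genes). At an unadjusted p under 0.05, 29 were higher and 1 lower (22.2% and 22.7%). The median log2 fold change was 0.52, against 0.00 over all tested genes, and 32 genes were higher without overlap and 1, *Wdr12*, lower (26% and 26.1% of all tested genes). Without TGFβ replicate 2, a library outside this comparison that adds to the shared estimate of spread, 33 were called higher and 1, *Wdr12*, lower. Of all tested genes, 22.8% were then called higher and 21.2% lower.

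The comparison of TGFβ with control and that of both agents with the inhibitor alone use different libraries. Called higher in both were 24 genes, which is 88.9% of the 27 and 96% of the 25, and 13.4% of all tested genes were called higher in both. The log2 fold changes had the same sign in 38 of 39 genes, with *Myc* the exception. Across the 39 genes the 2 sets of log2 fold changes had a Pearson r of 0.75 and a Spearman rho of 0.71, and across all tested genes r was 0.83. *Bop1*, *Pes1* and *Nip7* were called with TGFβ alone and not in the presence of the inhibitor (adjusted p = 0.0528, 0.129 and 0.0518), and *Nhp2* the reverse, and the interaction was called for none of the 4. *Nop58* rose 2.01-fold from 147, 152 and 152 CPM with the inhibitor to 274, 339 and 294 CPM with both (adjusted p = 1.7e-07), and *Rrp12* rose 2.84-fold from 8.7, 6.74 and 9.61 CPM to 23.0, 25.8 and 22.4 CPM (adjusted p = 9.6e-06). *Lyar* rose 1.91-fold from 63.3, 54.4 and 62.6 CPM to 109, 130.0 and 105 CPM, without overlap (adjusted p = 2e-06). *Rrs1*, so uneven with TGFβ alone, measured 45.3, 48.7 and 46.1 CPM with both against 25.8, 27.7 and 28.7 CPM with the inhibitor. The difference of 0.77 ± 0.32 (log2, SE) was not called in the fit of all 4 groups (adjusted p = 0.0795, edgeR). It was called without TGFβ replicate 2 (4.97e-06) or 3 (0.0295), libraries outside this comparison, and not without any other single library. It was also called when only these 2 groups were fitted (8.83e-06), by DESeq2 (0.0277) and by voom (0.000348).

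Some of these calls rested on 1 library. *Ddx10* was not called without replicate 3 of the inhibitor or replicate 2 of both agents, *Nhp2* without inhibitor replicates 1 or 2, and *Noc2l* without inhibitor replicates 2 or 3 or replicate 3 of both (adjusted p = 0.0539 to 0.143 over these 3 genes). *Nop14* lost its call without any of 5 libraries (adjusted p = 0.0509 to 0.183) and *Noc4l* without any of 7 (0.0512 to 0.292), in both cases including replicate 2 of both agents and control replicates 2 and 3.

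**Figure D3:**
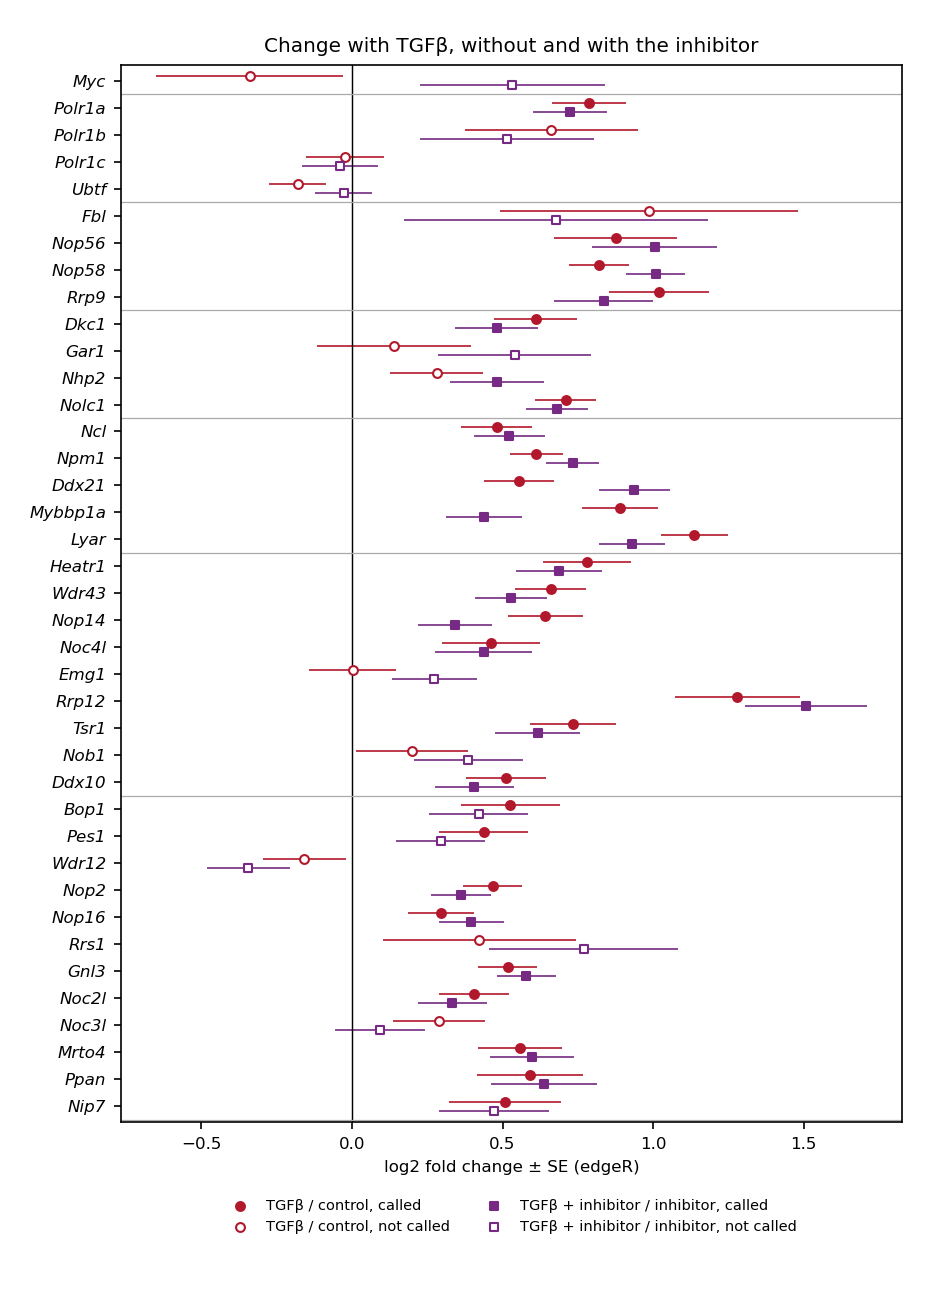
Log2 fold change with its SE (edgeR) for each of the 39 genes with TGFβ, in the absence (red circles, TGFβ over control) and presence (purple squares, both agents over inhibitor) of the inhibitor; filled symbols have an adjusted p under 0.05. Nearly every symbol lies right of 0; *Wdr12*, *Polr1c* and *Ubtf* lie left of 0 in both comparisons, and *Myc* lies left in one and right in the other.

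The inhibitor alone went with small falls that few genes passed the test for. Against control, 4 of the 39 genes fell and 0 rose (edgeR), which is 10.3% against 5.8% of all tested genes called lower and 2.47% called higher. At an unadjusted p under 0.05, 11 were lower and 0 higher (12.2% and 9.43% of all tested genes). DESeq2 called 6 lower and 0 higher (6.46% and 2.35%). The median log2 fold change was -0.18, against 0.01 over all tested genes. In 18 genes every inhibitor library was below every control and in 2, *Nop14* and *Ddx10*, above (18.7% and 17% of all tested genes). The 39 genes took 0.241 to 0.245% of gene counts, below the control range.

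The 4 genes that fell were *Ddx21*, *Nop58*, *Nolc1* and *Npm1*. *Ddx21* went from 134, 125 and 124 CPM to 82.9, 93.6 and 102 CPM, a 1.37-fold fall (log2 -0.46 ± 0.12 SE, adjusted p = 0.0206, edgeR). *Nop58* fell 1.33-fold from 182, 209 and 209.8 CPM to 147, 152 and 152 CPM (adjusted p = 0.0126). *Nolc1* fell 1.27-fold from 107, 102 and 95 CPM to 77.2, 76.7 and 85.4 CPM (adjusted p = 0.0422). *Npm1* fell 1.24-fold to 123, 114 and 114 CPM (adjusted p = 0.0332). In each of them all 3 inhibitor libraries were below all 3 controls. None of these calls held over all libraries left out in turn. *Nop58* was lost without control replicate 2 (0.0756) or 3 (0.0734). *Ddx21* and *Nolc1* were lost without any 1 of the controls or inhibitor replicates 1 or 2 (0.0550 to 0.101 and 0.0706 to 0.185). *Npm1* was lost without any 1 of the controls or inhibitor replicates 2 or 3 (0.0926 to 0.118). Without TGFβ replicate 2, which has no part in the comparison except in the shared spread, 12 genes fell, where 10.1% of all tested genes did. The count was 0 without control replicate 2 or 3 (3.39% and 3.53% of all tested genes). It was 1 without control replicate 1 or inhibitor replicate 2 (3.4% and 3.58%) and 2 without inhibitor replicate 1 (3.93%).

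*Myc* had the largest log2 fold change of the 39 genes with the inhibitor, -0.68 ± 0.30 (SE), and did not pass the test over all 4 groups (adjusted p = 0.213, edgeR). Its inhibitor libraries, at 18.7, 16.0 and 16.2 CPM, were all below the controls at 33.9, 25.2 and 22.7 CPM. It was called lower in 5 of 21 alternative analyses, and in 1 of the 12 with a library left out, that without TGFβ replicate 2 (0.0171). It was also called when only these 2 groups were fitted (adjusted p = 0.00074), without the low-count filter (0.00457) and with sample quality weights (0.0263, limma voom). It was not called by DESeq2 (0.132), with the replicate number as a block (0.0734), with library-size scaling (0.193) or after thinning to the shallowest library (0.365).

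Several other genes were low in all 3 inhibitor libraries without being called in the fit of all 4 groups. *Polr1a* measured 34.5, 34.8 and 36.1 CPM against 41.0 to 50.6 CPM in controls (log2 -0.39 ± 0.12 SE, adjusted p = 0.0623, edgeR), and *Nop2* 65.1, 61.0 and 66.1 CPM against 73.0 to 88.6 CPM (-0.32 ± 0.10, adjusted p = 0.0575). *Nop56* measured 27.9, 29.0 and 20.4 CPM against 34.3 to 37.0 CPM (-0.48 ± 0.21, adjusted p = 0.191). All 4 H/ACA genes were lower in every inhibitor library than in any control, with *Gar1* at 119, 117 and 109 CPM (-0.45 ± 0.25, adjusted p = 0.345). When only these 2 groups were fitted, *Polr1a*, *Nop2*, *Nop56* and *Gar1* were called lower (adjusted p = 0.00579, 0.00581, 0.0039 and 3.91e-05, edgeR). That fit called 12.7% of all tested genes lower. Each of these genes was also called by voom, while DESeq2 called *Polr1a* (0.0328) and *Nop2* (0.0172) and not *Nop56* or *Gar1*. Of the small subunit genes, 4 of 9 had a positive log2 fold change and 0 were called. *Ddx10* was the most raised of the 39, at 54.3, 54.9 and 48.5 CPM against 41.7 to 46.0 CPM in controls (0.26 ± 0.13, adjusted p = 0.279).

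Added to TGFβ, the inhibitor went with falls in 5 of the 39 genes and rises in 0 (edgeR), where 6.97% of all tested genes were called lower and 3.45% higher. At an unadjusted p under 0.05, 10 were lower and 0 higher (15.3% and 9.9% of all tested genes). DESeq2 called 6 lower and 0 higher (6.95% and 3.52%). The median log2 fold change was -0.18, against -0.02 over all tested genes, and 11 genes were lower without overlap and 1, *Ubtf*, higher (13.8% and 10.1% of all tested genes). The 5 falls became 8 without TGFβ replicate 3, 1 without replicate 1 of both agents and 2 without its replicate 3 (9.21%, 3.89% and 3.62% of all tested genes).

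*Mybbp1a* changed most, from 100.2, 133 and 89.1 CPM with TGFβ to 68.3, 75.2 and 66.0 CPM with both, a 1.55-fold fall (log2 -0.63 ± 0.13 SE, adjusted p = 0.00322, edgeR). This was the only one of the 5 calls that held whichever library was left out. *Nop2* fell 1.34-fold from 109.5, 113 and 108 CPM to 79.98, 81.8 and 85.3 CPM (adjusted p = 0.0108), a call that ended without replicate 1 of both agents (0.0608). *Polr1a* fell 1.37-fold from 70.7, 89.9 and 76.5 CPM to 56.6, 63.3 and 54.0 CPM (adjusted p = 0.0229), and was not called without TGFβ replicate 2 or without replicates 1 or 3 of both agents (0.0687 to 0.114). *Nolc1* fell 1.3-fold from 156, 180.4 and 161 CPM to 118, 140.0 and 126 CPM (adjusted p = 0.0232), a call that ended without replicates 1 or 3 of both agents (0.0976 to 0.124). *Wdr12* fell 1.37-fold from 26.5, 28.9 and 26.4 CPM to 21.4, 20.2 and 18.1 CPM (adjusted p = 0.0452), and kept that call in only 1 of the 12 analyses with a library left out, that without TGFβ replicate 3 (0.0595 to 0.185 in the other 11). All 5 genes had every library of the combined treatment below every TGFβ library.

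Other large differences in this comparison were not called. *Dkc1* measured 85.2, 88.1 and 88.0 CPM with both (log2 -0.43 ± 0.14 SE, adjusted p = 0.053, edgeR) and *Wdr43* 106, 116 and 110.4 CPM (-0.32 ± 0.12, adjusted p = 0.0866), each below all of its TGFβ libraries. *Fbl*, at 0.695, 1.46 and 3.17 CPM with both, spanned the whole range of its other groups. *Myc*, at 29.2, 16.2 and 28.4 CPM with both, overlapped its TGFβ values (0.19 ± 0.31, adjusted p = 0.755). With the inhibitor, *Nolc1* was the only one of the 39 genes called lower both in the absence and in the presence of TGFβ, comparisons that share no library, while 2.68% of all tested genes were. The sign was the same in 30 of 39 genes, and across them Pearson's r was 0.35 and Spearman's rho 0.45, against an r of 0.49 over all tested genes.

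**Figure D4:**
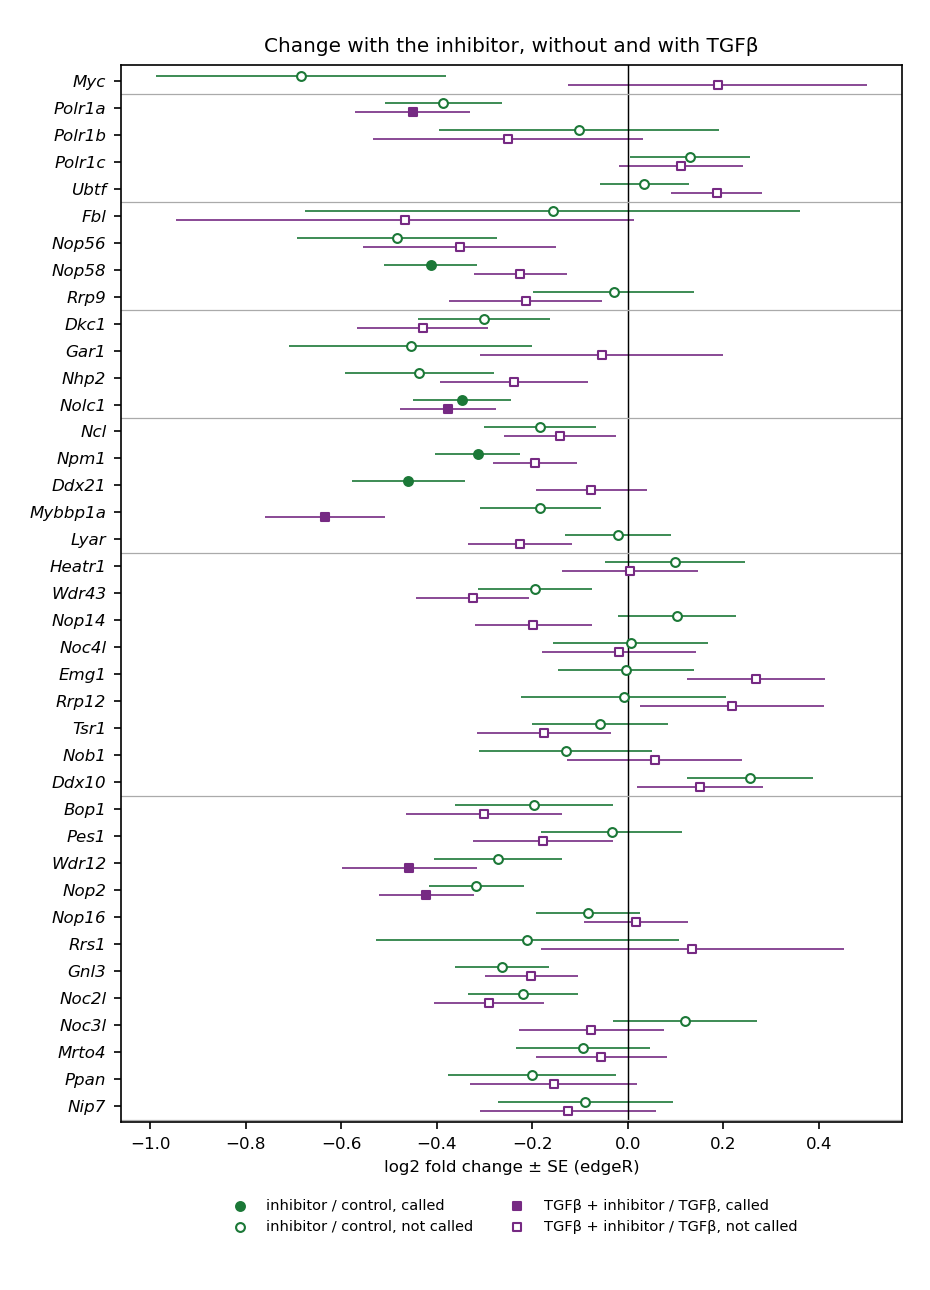
Log2 fold change with its SE (edgeR) for each of the 39 genes with the inhibitor, in the absence (green circles, inhibitor over control) and presence (purple squares, both agents over TGFβ) of TGFβ; filled symbols have an adjusted p under 0.05. Most symbols lie left of 0, 4 circles and 5 squares are filled, and *Myc* has the circle farthest left with a square right of 0.

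Whether the effect of the inhibitor differed with TGFβ was tested as an interaction. None of the 39 genes was called (edgeR, 0 higher and 0 lower, smallest adjusted p = 0.347 for *Mybbp1a*), where 0.641% of all tested genes were called higher and 0.471% lower. At an unadjusted p under 0.05, 1 was higher and 1 lower (5.07% and 5.38% of all tested genes), and DESeq2 and voom called 0. *Myc* had the largest interaction, 0.87 ± 0.44 (log2, SE; adjusted p = 0.52), and *Mybbp1a* the lowest, -0.45 ± 0.18. *Nop14*, at 102, 133 and 101 CPM with both and 92.4, 86.1 and 86.2 CPM with the inhibitor, had -0.30 ± 0.17. *Ddx21* was called without TGFβ replicate 2 (0.53, adjusted p = 0.0263), and *Myc* without the low-count filter (adjusted p = 0.0414).

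With both agents, levels were above control in 18 of the 39 genes and below it in 1 (edgeR), where 15.3% of all tested genes were called higher and 16.5% lower. DESeq2 called 15 higher and 1 lower (12% and 14.9% of all tested genes). The median log2 fold change was 0.34, against 0.03 over all tested genes, and 26 genes were higher without overlap and 1 lower (27% and 24.9% of all tested genes). *Rrp12* rose 2.82-fold against control (adjusted p = 1.18e-05) and *Lyar* 1.88-fold (adjusted p = 2.96e-06). The 1 fall was *Wdr12*, at 21.4, 20.2 and 18.1 CPM against 30.6, 27.6 and 33.4 CPM, 1.53-fold lower (log2 -0.62 ± 0.14 SE, adjusted p = 0.00192). It was called in all 21 alternative analyses. *Ubtf*, at 104, 104 and 113 CPM, and *Nop2*, at 79.98 to 85.3 CPM, overlapped the control range. Without replicate 2 of both agents 10 of the 39 genes were called higher (12.3% of all tested genes). Of the 18 rises, 9 ended when 1 library was left out (adjusted p, edgeR). *Mrto4* was lost without control replicate 3 (0.0545), *Nop14* without replicate 2 of both agents (0.0680), *Gnl3* without that library or control replicate 1 (0.0956 to 0.0973), and *Nolc1* without replicate 2 of both or control replicates 2 or 3 (0.0521 to 0.0900). *Nop16* was lost without any 1 control or replicates 2 or 3 of both (0.0717 to 0.114), *Wdr43* without any 1 control or library of both (0.0526 to 0.108), and *Polr1a* without replicates 1 or 2 of any group but TGFβ (0.05003 to 0.177). *Ncl* was lost without any 1 library of the 3 groups other than TGFβ (0.0559 to 0.152), and *Noc4l* without any 1 control or inhibitor library or replicate 2 of both (0.0562 to 0.335). With scaling by library size alone, 11 genes were called higher, and the median of all tested genes in this comparison moved from 0.03 to -0.09.

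The order of the 4 group means was the same in 25 of the 39 genes, lowest with the inhibitor, then control, then both agents, and highest with TGFβ. The neighbouring groups in that order often did not differ beyond their spread, as the counts of calls above show. *Emg1*, *Rrp12*, *Nob1*, *Nop16*, *Rrs1*, *Heatr1* and *Ddx10* had their highest mean with both agents. *Polr1c* and *Ubtf* had their lowest mean with TGFβ, and *Myc* and *Wdr12* had their highest in control. *Nop14*, *Noc4l* and *Noc3l* were lowest in control and highest with TGFβ.

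The TGFβ libraries varied more than the others. The median coefficient of variation of the 39 genes was 14.7% with TGFβ, against 6.79% in control, 6.71% with the inhibitor and 8.85% with both, and the biological coefficient of variation over all tested genes was 0.227 with TGFβ and 0.0657 in control. Replicate 2 was the highest TGFβ library for 23 of the 39 genes and the lowest for 12. It was below every control for *Myc*, *Ubtf*, *Gar1*, *Emg1* and *Rrs1*, of which only *Ubtf* was also below them in the other 2 TGFβ libraries.

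Of 15 other genes of the MYC network tested, 2 rose and 3 fell with TGFβ (edgeR), shares near the 19.4% higher and 17.1% lower of all tested genes, and the median log2 fold change was -0.01. *Mxd4*, whose product pairs with MAX and opposes MYC at shared sites, fell 4.55-fold from 389.6, 422 and 403 CPM to 104, 82.6 and 78.4 CPM (log2 -2.19 ± 0.11 SE, adjusted p = 2.15e-11). With the inhibitor it measured 478, 461 and 474 CPM and with both 134, 143 and 134 CPM, a 3.44-fold fall (adjusted p = 1.51e-10), and both falls were called in all 21 alternative analyses. *Mxi1*, another partner of MAX of the same kind, fell 1.51-fold from 37.8, 32.1 and 31.3 CPM to 19.5, 21.1 and 28.7 CPM (adjusted p = 0.0027).

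Relative to TGFβ alone, *Mxd4* was 1.54-fold higher with both agents (adjusted p = 0.000795, edgeR), a rise called in all 21 alternative analyses, and with the inhibitor alone it was not called (log2 0.22 ± 0.10 SE, adjusted p = 0.208). *Mycn*, a relative of *Myc*, measured 3.79, 5.81 and 3.43 CPM in controls, 0.771, 1.42 and 0.328 with the inhibitor, 1.94, 0.797 and 1.53 with TGFβ and 0.347, 1.01 and 0.528 with both. It was below every control in all 9 treated libraries, and it was called lower with the inhibitor (5.14-fold, adjusted p = 0.00652), with TGFβ (3.12-fold, adjusted p = 0.0145) and with both (6.69-fold, adjusted p = 0.000583). Few reads lie behind these falls. The 0.328 CPM of inhibitor replicate 3 and the 0.347 CPM of replicate 1 of both agents are 3 counts each. In TGFβ replicate 3, where *Mycn* measured 1.53 CPM, 3 counts make 1.15 CPM. The call with the inhibitor ended without control replicate 2 (0.0501), and that with TGFβ without control replicate 2 (0.0816) or TGFβ replicate 2 (0.0669). *Mlxip*, which encodes a glucose-sensing relative, rose 1.73-fold with TGFβ (adjusted p = 0.00285), and *Fbxw7*, a ubiquitin ligase subunit that marks MYC for degradation, 1.33-fold (adjusted p = 0.0123, or 0.0665 without control replicate 1). Of 20 known MYC targets outside ribosome biogenesis, 10 were called higher and 5 lower with TGFβ, where 19.4% and 17.1% of all tested genes were. *Ranbp1* was up 1.82-fold and *Pa2g4* 1.5-fold, and the transferrin receptor *Tfrc* was down 3.94-fold and the cyclin *Ccnd2* 3.02-fold.

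The wider ribosome biogenesis machinery showed more rises than falls with TGFβ. Of 120 tested assembly genes outside the 39, 60 rose and 0 fell, with a median log2 fold change of 0.40 (19.4% and 17.1% of all tested genes rose and fell). Small subunit factors rose in 22 of 38, with *Tbl3* up 1.92-fold and *Ddx52* 1.72-fold, and large subunit factors in 24 of 45, with *Rbm28* up 1.57-fold and *Brix1* 1.55-fold. Exosome and exonuclease genes, which trim the precursor, rose in 6 of 13 (*Exosc1* 1.67-fold and *Xrn2* 1.48-fold). Genes of snoRNP assembly rose in 3 of 8 (*Nufip1* 1.87-fold and *Tcof1* 1.59-fold) and methyltransferases of ribosomal RNA in 3 of 8 (*Rrp8* 1.59-fold and *Ftsj3* 1.52-fold). Other genes of RNA polymerase I transcription rose in 2 of 8, *Polr1e* by 1.72-fold and *Taf1d* by 1.36-fold. *Rrp8* was not called without TGFβ replicate 2 (adjusted p = 0.0501, edgeR), nor *Taf1d* without control replicate 1 (0.0557). Ribosomal protein genes rose in 27 of 77 and fell in 1, with *Rpl13a* up 1.69-fold. The 1 fall was *Rpl7*, 1.76-fold lower (adjusted p = 0.0116), which was not called without control replicate 1 (0.0546) or TGFβ replicate 2 (0.0564).

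With the inhibitor, the same 120 assembly genes gave 0 rises and 1 fall against control and 0 rises and 7 falls when TGFβ was present, where 5.8% and 6.97% of all tested genes were called lower, so that the falls were no more frequent than over all genes. Their medians were -0.06 and -0.11. Compared with the inhibitor alone, both agents gave 62 rises and 1 fall among them, where 18% of all tested genes were called higher and 18.3% lower.

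**Figure D5:**
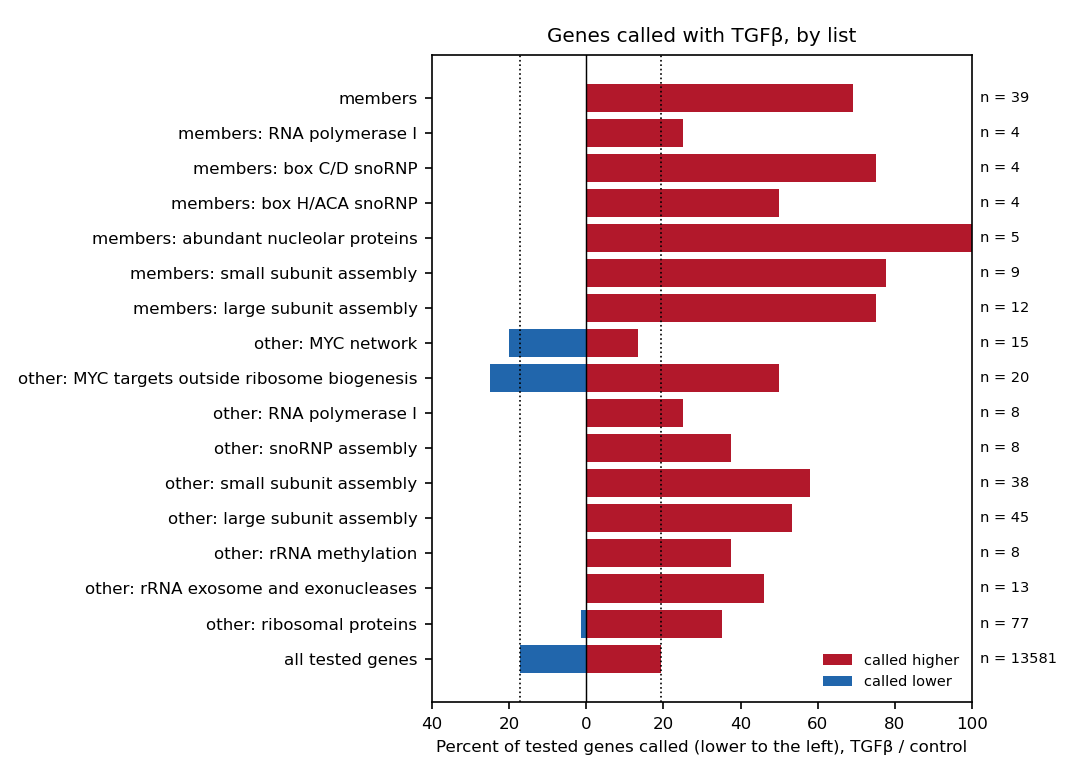
Share of tested genes called higher (red, to the right) or lower (blue, to the left) with TGFβ against control, for the 39 genes, their roles and the other lists; n is the number tested, the dotted lines mark the shares over all 13581 tested genes, and *Myc* alone is not drawn as a role. The nucleolar proteins reach 100% (5 of 5), the 39 genes 69.2%, and the RNA polymerase I genes 25% in both lists.

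Counting at the 3′ end limits some of these genes. The last bases of *Fbl*, *Nop56* and *Npm1* are nearly identical to processed pseudogenes, which held 83.2%, 28.7% and 24.0% of the summed counts of gene and copies. With the copies added, *Fbl* was still not called with TGFβ (log2 0.50, adjusted p = 0.135, edgeR), *Nop56* was called at 0.98 (adjusted p = 0.00999) and *Npm1* at 0.67 (adjusted p = 1.25e-05), and the counts of calls in all 6 comparisons were unchanged. Only pseudogenes were added. Counting every gene with a similar 3′ stretch, 4 held 16744 counts against 159 for *Fbl*, and 4 held 1025 against 2653 for *Wdr12*. For *Nop58*, *Polr1b* and *Noc2l*, 246, 425 and 235 other genes shared such a stretch. How far their reads were told apart was not tested, so the level of *Fbl* in particular is uncertain. In GENCODE M21, 17 of the 39 genes overlap another gene when small RNA genes are left out, each time on the opposite strand, such as *Bop1* with *Scx*, *Mybbp1a* with *Spns2* and *Wdr12* with *Carf*. The setting used for strand is not given in the sources used here, so reads of such pairs may not be told apart. *Dkc1*, *Gnl3*, *Ncl*, *Nop56*, *Nop58*, *Ppan*, *Tsr1* and *Wdr43* host 23 snoRNA genes in their introns or exons. All 8 of these hosts rose with TGFβ, as did 69.2% of all 39 genes and 19.4% of all tested genes, and a difference between hosts and other members was not tested.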

How the data were processed

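Per the submitters' processing notes, reads were aligned with STAR and counted with HTSeq, and the authors deposited whole-number counts per gene. Versions are not given in the sources used here, and the build named, GRCh38, is human while the identifiers are mouse, so no coordinate was taken from the count table. HTSeq rows that name no gene were left out of library sizes (reads in no feature equalled 21.1 to 26.8% of each library). The fit used edgeR 4.0.16 in R 4.3.3: filterByExpr, TMM scaling, 1 mean for each of the 4 groups, robust quasi-likelihood tests and Benjamini-Hochberg adjustment over 13581 genes, with 0.05 as threshold. CPM use the TMM-scaled library sizes. DESeq2 1.42.0 and limma 3.58.1 (voom) were alternatives. The code was tested on simulated data. The members and lists were chosen with earlier results of these data known. Every library's values are given for *Myc* and, with TGFβ against control, for the gene of smallest adjusted p and of largest change in each role. In the other comparisons they are given for only some of the genes so placed, and further genes were added. Of other lists, up to 2 rises and 2 falls of smallest adjusted p with TGFβ are named, and *Mycn*, *Npm1* and further values for *Mxd4* were added after their values were seen. Symbols were matched for 55141 identifiers.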

Additional observations from a re-analysis of the deposited data

How the results depend on the processing

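Medians kept their sign in all alternatives for 5 comparisons, while that of the interaction, -0.03, ranged over -0.07 to 0.085, the latter when both TGFβ replicates 2 and 3 were dropped (a setting chosen after seeing the data, in which the lone TGFβ library is assumed to vary like the others). That setting also gave 13 falls with the inhibitor, 3 falls with the inhibitor added to TGFβ and 1 fall with TGFβ added to the inhibitor. With library-size scaling there were 1 fall with TGFβ (median 0.43), 8 falls with the inhibitor (median -0.25), 1 fall for both agents against the inhibitor and 11 rises for both against control (median 0.22), and the calls over all genes went from 335 up and 788 down to 204 and 1036 with the inhibitor and from 2077 and 2244 to 1404 and 2899 for both against control. Fits of the compared groups alone gave 13 falls with the inhibitor and 0 with the inhibitor added to TGFβ (12.7% and 2.59% of all tested genes were called lower). There were 14 falls with the inhibitor by voom (12.4% of all tested genes). After thinning to the shallowest library there were 0 falls with the inhibitor (median -0.15) and 0 with the inhibitor added to TGFβ, 15 rises for both against the inhibitor and 8 for both against control. Without the low-count filter the interaction had 1 rise. With a library left out, falls ranged over 0 to 12 with the inhibitor, 1 to 8 with the inhibitor added to TGFβ and 0 to 1 for both against the inhibitor, rises over 10 to 24 for both against control and 0 to 1 for the interaction. The log2 value of *Myc* ranged over -0.55 to 0.00408 with TGFβ, positive without TGFβ replicate 2. With the inhibitor added to TGFβ it became -0.11 after thinning, -0.054 without TGFβ replicates 2 and 3 and, with a library left out, -0.16 (without TGFβ replicate 2) to 0.44. For both agents against control it ranged over -0.30 to 0.077, positive without control replicate 1 (0.04) or replicate 2 of both. The causes were not tested. Whether libraries of the same replicate number were handled together is not stated, and these correlations cannot settle it. Correlations of deviations were -0.085 to 0.202 between libraries of the same number, with 1 of 18 pairs over 0.1, against 3 of 36 pairs of different numbers. With the replicate number as a block there were 25 rises with TGFβ, 3 falls with the inhibitor, 4 falls with the inhibitor added to TGFβ, 25 rises for both against the inhibitor and 19 for both against control. Other counts stayed within 1.5 times their value. Depth limits *Fbl* most, with 159 counts over the 12 libraries.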
